A study of Mus musculus with 18 samples.

Results

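Transcripts of 43 lysosomal genes, chosen by symbol from the 54446 genes of the deposited table, were followed in mouse eosinophils that had been cultured with apoptotic cells (ACs). The members were taken as a list of known lysosomal proteins, drawn up with earlier results of these data known, and membership itself used no measured value. They comprised 11 proteases, 9 glycosidases, 11 lipid and nucleic acid enzymes with their cofactors and carriers, 5 membrane proteins, 6 proton pump genes and 1 transcription factor, and each of the 43 symbols was found in the table.

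All 18 libraries came from eosinophils of the peritoneal cavity of Il5Tg mice (strain given as C57BL/6; the age of the eosinophil donors is not given), which carry an IL-5 transgene that raises eosinophil numbers. B and T cells were depleted with anti-B220 and anti-Thy1.2 beads, the eosinophils were kept for 18 h with 5 dexamethasone-treated wild-type thymocytes per eosinophil, and the cells were then selected again with anti-Siglec-F beads. The Type 1 experiment held 4 groups of 3 libraries, namely ACs with no stimulus, E. coli + ACs, IFN-γ + ACs, and IFN-γ followed by E. coli, likewise with ACs (IFN-γ + E. coli + ACs), and the IL-4 experiment held 3 libraries each of ACs alone and IL-4 + ACs. Every group therefore contained apoptotic cells, the doses of the stimuli are not given in the sources used here, and eosinophils without apoptotic cells are not analysed here.

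Lysosomes are the acidic compartments in which engulfed cells, bacteria and worn-out organelles are broken down. A proton pump, the V-ATPase, with a membrane sector (V0) and a catalytic sector (V1), acidifies the lumen, and proteases, glycosidases and lipases that work at low pH digest the cargo. Many of these genes carry an E-box of the sequence CACGTG in their promoters, read by the transcription factor TFEB and its relatives in the longer form TCACGTGA, and eosinophils are a cell type in which the tetraspanin CD63 marks secretory granules as well as lysosomes.

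Promoter windows, from 250 bases before to 50 bases after the annotated start (RefSeq, GRCm38.p6), were at hand for 36 of the 43 members, in 41 windows. The E-box CACGTG lay in 12 of these windows (29.3%), against 7.15% of 32851 windows of all genes. Its longer form TCACGTGA, which contains the E-box, lay in 6 (14.6%), against 0.974%. A STAT site of the letters TTCNNNGAA lay in 2 (4.88%), against 8.30%. All 3 motifs read the same on both strands, and a match is only a description of the letters. The stretches below are shown because these members hold the longer form and differ in their response (70 bases 5′ to 3′ on the gene's strand, with TCACGTGA in capitals).
Atp6v1a, chr16:44139353-44139422, minus strand: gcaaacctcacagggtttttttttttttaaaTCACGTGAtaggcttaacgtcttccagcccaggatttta
Gla, chrX:134601162-134601231, minus strand: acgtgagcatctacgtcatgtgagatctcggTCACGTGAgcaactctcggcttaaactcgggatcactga
Ctsd, chr7:142387888-142387957, minus strand: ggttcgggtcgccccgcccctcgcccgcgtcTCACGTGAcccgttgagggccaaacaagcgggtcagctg
Ctsa, chr2:164833703-164833772, plus strand: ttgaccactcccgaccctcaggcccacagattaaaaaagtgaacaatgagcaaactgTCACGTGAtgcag
Mcoln1, chr8:3500442-3500511, plus strand: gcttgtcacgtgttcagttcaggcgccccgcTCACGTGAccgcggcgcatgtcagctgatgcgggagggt

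The capitals began 132 bases before the start in Atp6v1a, 195 in Gla, 99 in Ctsd, 13 in Ctsa and 46 in Mcoln1. Gla held a further copy of TCACGTGA 228 bases before its start. For Ctsa the start meant is a downstream one, with a further copy 4 bases after it. The window at the upstream start of Ctsa held no copy. Atp6v0d1 held the same letters across its start site. Of these 6 genes, Atp6v1a and Gla rose with IFN-γ and Ctsa fell with IFN-γ + E. coli, while Ctsd, Mcoln1 and Atp6v0d1 were called in none of the 4 comparisons with ACs. No window was at hand for Ctsb, Ctsh, Asah1, Npc1, Atp6v0d2, Atp6v1b2 and Atp6v1h.

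The libraries held between 779421 and 7782072 reads on genes (median 4461121). Both libraries numbered 3 in the IL-4 experiment stood apart with 849705 (IL-4 + ACs) and 779421 (ACs) reads, and results of that experiment are therefore given with and without them. The eosinophil label was checked against 10 markers, whose summed normalized counts had a mean of 17175 in the ACs libraries of the Type 1 experiment. Alox15 alone had a mean of 9408 there, so this sum rests largely on 1 gene. Siglecf (3237), the surface lectin used for the selection, was also abundant, whereas the granule peroxidase Epx was near 0 (0.857). All 12 markers of peritoneal macrophages were also detected in every group, and their sum had a mean of 15698 in the same ACs libraries. Among them C1qc, a complement component made by macrophages, had a mean of 8319 there. Sums of different marker lists do not give the share of each cell type. Summed thymocyte markers stayed between 45.5 and 180 in all libraries, with Rag1, Rag2 or Dntt at 0 in some groups, neutrophil markers between 1446 and 5010, mast cell markers between 5.64 and 66.5, with Mcpt4 at 0 in both groups with E. coli, and B cell markers reached no more than 89.9. In these bulk samples, a change in the number of cells of a type and a change in RNA per cell cannot be told apart.

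Levels are normalized counts, that is, reads counted on a gene divided by a size factor of the library. The libraries read 3′ ends (CEL-Seq2), so levels of different genes are set side by side without division by length. Over the 6 ACs libraries, Grn (progranulin, a lysosomal glycoprotein that also acts as a growth factor) had the highest mean at 13567, followed by Lamp1 (the main glycoprotein of the lysosomal membrane) at 12502, the cathepsins Ctss at 6292 and Ctsb at 5150, and the α-mannosidase Man2b1 at 4387. The lowest means belonged to Atp6v0d2 (32.5), Dnase2a (36.5), Ctsk (45.3), Idua (63.0) and Tfeb (65.6). The order differed between the experiments. In the ACs libraries of the Type 1 experiment Lamp1 (13398) lay above Grn (12684) and Man2b1 (4975) above Ctss (4930) and Ctsb (4681), and in those of the IL-4 experiment Dnase2a (38.1) and Ctsk (49.5) lay below Atp6v0d2 (57.2). The ranges of Grn (12045 to 16100) and Lamp1 (10691 to 14610) overlapped, as did those of Ctss (4292 to 9259) and Ctsb (4095 to 6241).

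The 43 transcripts together took 1.76% to 2.02% of the reads on genes with ACs in the Type 1 experiment, 1.55% to 1.71% with E. coli, 2.04% to 2.25% with IFN-γ and 1.45% to 1.60% with both. The libraries with IFN-γ all lay above those with ACs, and the libraries with E. coli, with or without IFN-γ, all lay below them. In the IL-4 experiment the share was 1.93% to 2.04% with ACs and 1.56% to 1.89% with IL-4, again without overlap.

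**Figure D1:**
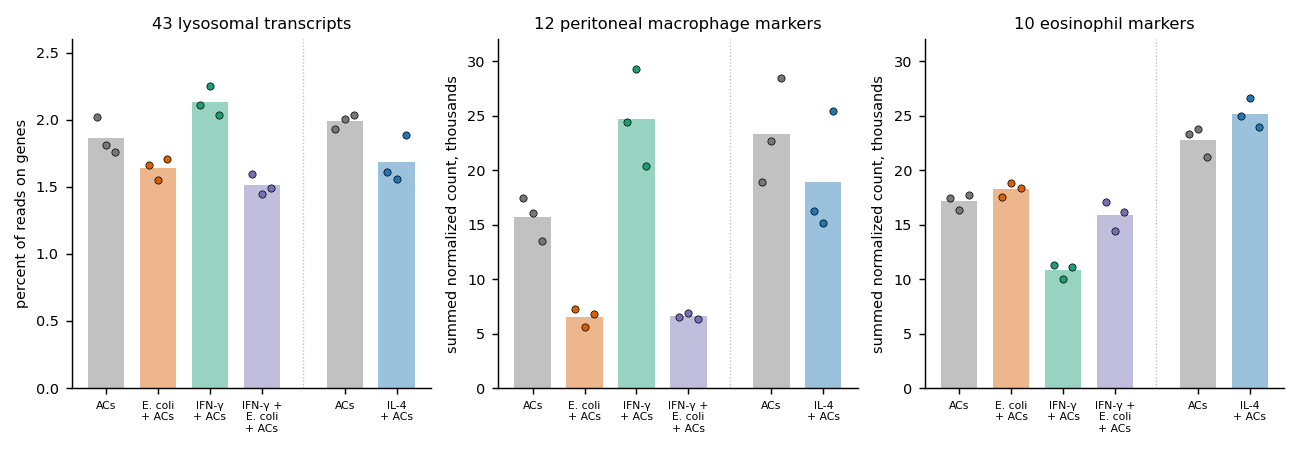
Share of the reads on genes taken by the 43 lysosomal transcripts (percent) and summed normalized counts of the peritoneal macrophage and eosinophil markers in each group. Points are libraries, bars are means of 3, and the dotted line separates the Type 1 experiment from the IL-4 experiment. The share lies between 2.04% and 2.25% with IFN-γ and between 1.45% and 1.60% with IFN-γ + E. coli, and the macrophage sum lies between 20388 and 29248 with IFN-γ and between 6331 and 6925 with IFN-γ + E. coli.

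Each transcript was tested with limma across all genes with a mean of at least 10, which all 43 members reached, Atp6v0d2 in the Type 1 experiment through the IFN-γ libraries. A transcript was called where its p, adjusted over all these genes by the Benjamini-Hochberg method, was under 0.05 and it had changed 1.5-fold or more, and log2FC denotes the difference in log2(normalized count + 1). The 3 comparisons of the Type 1 experiment share their ACs libraries.

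With E. coli, limma called no member higher (background of all genes, 5.05% of 10166) and 5 members fell (background 5.25%). These were Atp6v0d2, Ctsl, Gusb, Lgmn and Tpp1, and 5 further members passed the adjusted p but not the 1.5-fold change. At an unadjusted p under 0.05, 4 members were higher (13.4% of all genes), and edgeR and DESeq2 also called none higher. The median log2FC of the 43 was -0.06 against -0.00 for all genes, 3 members lay higher without overlap between the 3 and 3 libraries (background 19.9%) and 15 lower (background 18.4%). The summed macrophage markers were at 5576 to 7283 with E. coli against 13519 to 17470 with ACs, and 8 of the 12 fell and none rose. Their part in the result was not tested. Without replicate 2 of the ACs libraries 3 members fell, and 1 member, Cd63, rose without replicate 1 of the ACs or replicate 2 of the E. coli libraries.

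With IFN-γ, 14 members rose (background 11.4%) and 2 fell (background 9.96%). The risers were spread over proteases (4 of 11), glycosidases (2 of 9), the lipid group (4 of 11), membrane proteins (1 of 5) and the proton pump (3 of 6), and both members that fell were glycosidases. The median log2FC was 0.38 against -0.00 for all genes, with 26 members higher without overlap (background 22.6%) and 4 lower (background 20.3%). The summed macrophage markers were at 20388 to 29248, with 4 of the 12 risen and 2 fallen, and the summed eosinophil markers at 10004 to 11253 against 16335 to 17755 with ACs. Their part in the result was not tested. When the libraries were rescaled to a common upper quartile, the median of all genes moved from -0.00 to -0.26. The calls of all genes went from 1160 higher and 1013 lower to 688 and 1925. That quartile was taken within each library over its genes with a read, so it depends on how many genes were detected. These were 13603 to 14959 genes with IFN-γ and 15508 to 16118 with ACs, and their part in the shift was not tested. The members then gave 4 higher (Lipa, Ctsb, Ctss and Gla) and 3 lower (Gusb, Neu1 and Man2b1), while their median kept the same distance of 0.38 from that of all genes.

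With IFN-γ + E. coli, 4 members rose (background 14.7%) and 12 fell (background 17.2%). Of those that fell, 4 were proteases, 5 glycosidases, 2 belonged to the lipid group and 1 to the proton pump. The median log2FC was -0.08 against -0.05, with 8 members higher without overlap (background 23.9%) and 17 lower (background 24.8%). The summed macrophage markers were at 6331 to 6925, with 2 of the 12 risen and 8 fallen, and their part in the result was not tested. Upper quartile rescaling moved the median of all genes to -0.35 and the calls of all genes from 1494 higher and 1746 lower to 840 and 2848, and those of the members to 1 higher (Gm2a) and 15 lower. Without replicate 1 of the group with both stimuli, 2 members rose in place of 4.

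With IL-4, limma called no member in either direction (backgrounds 0.740% higher and 0.347% lower of 10669 genes). At an unadjusted p under 0.05, 1 member was higher (4.71% of all genes) and 16 were lower (4.94% of all genes), and edgeR and DESeq2 on the recovered reads each called 2 lower, Ctsd and Lipa (backgrounds 0.797% and 0.759%). The log2FC was negative for 35 of the 43, with a median of -0.28 against -0.01 for all genes, and 14 members lay lower without overlap (background 8.84%) and none higher (background 8.45%). The summed macrophage markers were at 15180 to 25407 with IL-4 and 18890 to 28458 with ACs, and 2 of the 12 fell. With both shallow libraries left out, these sums were 15180 and 16274 with IL-4 and 18890 and 22720 with ACs, without overlap. The part of these markers in the result was not tested. Without both shallow libraries 7 members fell (background in that fit 2.93%) and 1, Atp6v0d2, rose (background 3.25%), and 1 fell without either of them alone (Ctsd without IL-4 replicate 3, Ppt1 without ACs replicate 3).

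**Figure D2:**
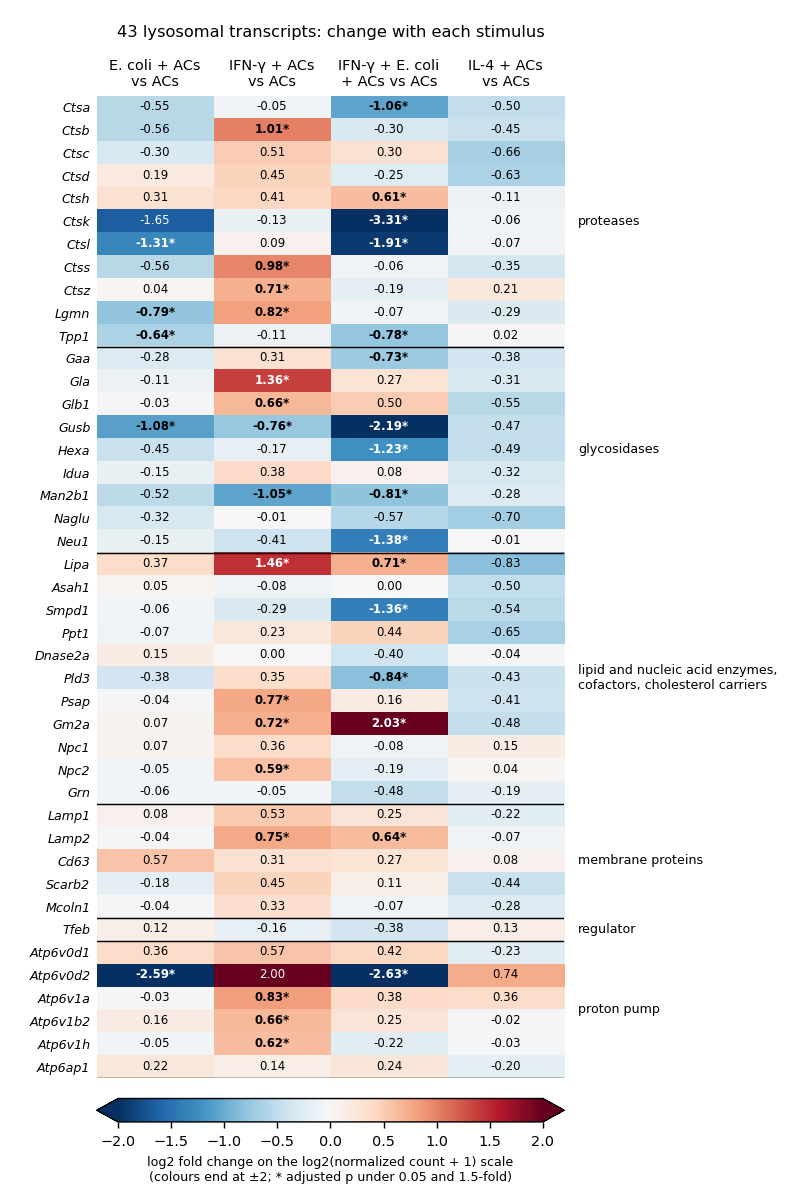
Log2 fold change of each of the 43 lysosomal transcripts (rows, by role) with E. coli, IFN-γ, IFN-γ + E. coli and IL-4, each against the ACs libraries of its own experiment. Red is higher and blue is lower, colours end at 2 in either direction, and asterisks mark an adjusted p under 0.05 with a 1.5-fold change. The IFN-γ column holds 14 risers, the IFN-γ + E. coli column 12 that fell, and the IL-4 column no call, with 35 of 43 values below 0.

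Among the proteases, the papain-like cathepsins Ctsb, Ctsl and Ctss moved differently. Ctsb, an endopeptidase that also trims proteins from their carboxyl end (chr14:63122462-63145923, GRCm38), was at 5329, 4620 and 4095 with ACs and at 9118, 11040 and 8149 with IFN-γ. With E. coli its values were 3517, 2746 and 3277, and with IFN-γ + E. coli 3967, 3400 and 4043. All IFN-γ libraries lay above those with ACs and all libraries with E. coli below them. Ctsb rose 2.01-fold with IFN-γ (log2FC 1.01, SE 0.13, adjusted p = 1.1e-05), and it did not pass the threshold with E. coli (-0.56, adjusted p = 0.0076, short of 1.5-fold) or with both (-0.30, adjusted p = 0.086). Its exons share 774 bases with those of Fdft1 on the opposite strand, and the strand setting of the authors' counting is not given in the sources used here.

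Ctss, the cathepsin that cleaves the invariant chain of MHC class II, was at 5601, 4895 and 4292 with ACs and at 9196, 11066 and 8970 with IFN-γ. With E. coli it was at 3580, 2917 and 3513, below all ACs libraries, and with IFN-γ + E. coli at 4697, 3644 and 6053, which overlapped them. It rose 1.98-fold with IFN-γ (log2FC 0.98, SE 0.15, adjusted p = 7.9e-05). Its values with E. coli (-0.56, adjusted p = 0.020) and with both (-0.06, adjusted p = 0.78) were not called.

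Ctsl, an endopeptidase (chr13:64359337-64370890), was at 2557, 2605 and 2045 with ACs and at 2755, 2832 and 2099 with IFN-γ, and these groups overlapped. It was at 1097, 842 and 966 with E. coli and at 573, 559 and 791 with IFN-γ + E. coli, all below the ACs libraries. Ctsl fell with E. coli (log2FC -1.31, SE 0.15, adjusted p = 7.4e-06) and with IFN-γ + E. coli (-1.91, adjusted p = 1.2e-08). With IFN-γ its log2FC was 0.09. Its exons share 977 bases with the antisense transcript Gm47123 and 395 bases with the pseudogene Gm49230, which lies on the same strand. Same-strand overlaps were also present for Ctsd (227 bases with Gm49369) and Glb1 (165 bases with Tmppe).

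Lgmn encodes legumain, an asparaginyl endopeptidase that processes cathepsins. It was at 228, 191 and 139 with ACs, 126, 96.5 and 95.9 with E. coli and 323, 337 and 304 with IFN-γ, and none of these groups overlapped. Lgmn fell with E. coli (log2FC -0.79, adjusted p = 0.0074) and rose with IFN-γ (0.82, adjusted p = 0.0027). With both it was at 181, 147 and 195 (-0.07, adjusted p = 0.78). Without replicate 1 of the ACs libraries, the change with E. coli was -0.62 and no longer passed (adjusted p = 0.060).

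Tpp1, the tripeptidyl peptidase lost in a form of neuronal ceroid lipofuscinosis, fell from 408, 498 and 357 with ACs to 283, 239 and 284 with E. coli (log2FC -0.64, adjusted p = 0.012) and to 257, 217 and 258 with both (-0.78, adjusted p = 8.6e-04). Both lower groups lay below every ACs library. The call with E. coli ended without replicate 2 of the ACs libraries (-0.51, adjusted p = 0.087) or of the E. coli libraries (-0.56, adjusted p = 0.069).

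Ctsk, the collagen-cleaving cathepsin best known from osteoclasts, was at 59.4, 39.4 and 24.5 with ACs and at 4.28, 11.0 and 0.00 with IFN-γ + E. coli. It fell with both stimuli (log2FC -3.31, SE 0.64, adjusted p = 4.0e-04). The fall rests on 12 reads over the 3 libraries with both stimuli against 145 with ACs, a ratio of 0.130 (exact 95% interval 0.0656 to 0.234, counting error only). Ctsa, the carboxypeptidase that also protects β-galactosidase and neuraminidase, fell from 590, 473 and 452 with ACs to 225, 277 and 222 with both (-1.06, adjusted p = 4.2e-05). Ctsh, an aminopeptidase, rose from 2311, 2236 and 2257 to 3847, 3203 and 3350 with both (1.52-fold, adjusted p = 1.2e-04), and without replicate 1 of the group with both it was 0.53 and short of 1.5-fold. The remaining riser with IFN-γ was Ctsz, a carboxypeptidase (0.71, adjusted p = 3.0e-04), and Ctsc and Ctsd were not called in any comparison with ACs.

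**Figure D3:**
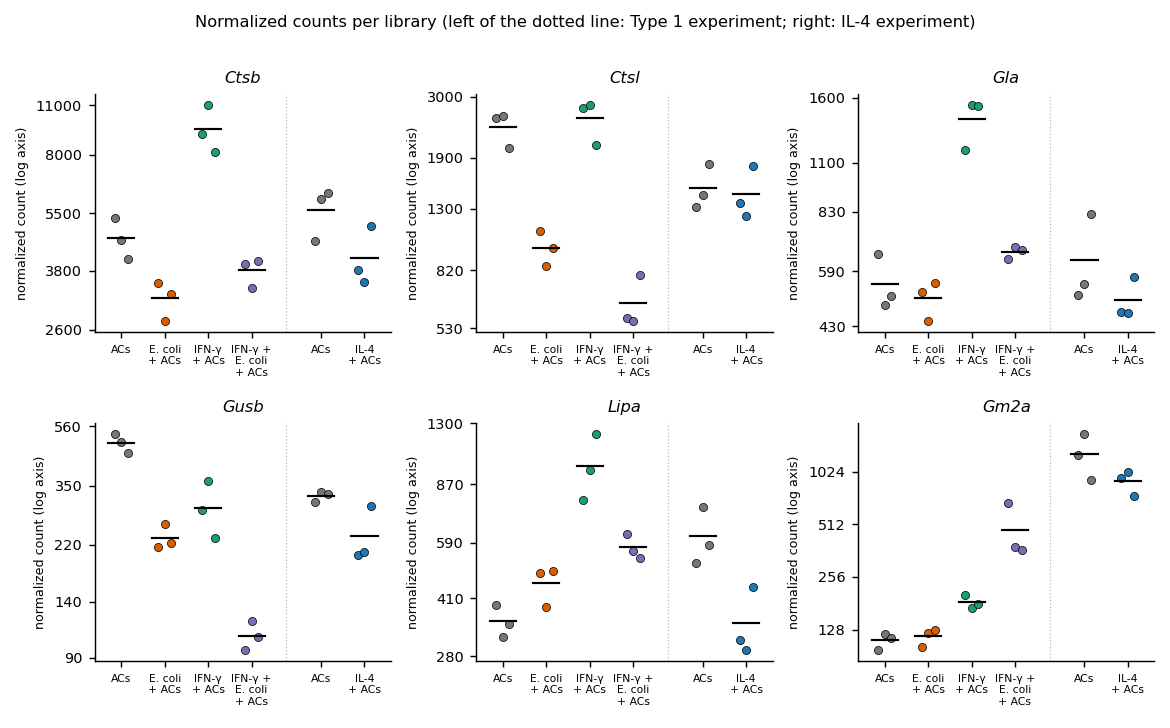
Normalized counts (log axes that differ between panels) of Ctsb, Ctsl, Gla, Gusb, Lipa and Gm2a in each library. Points are libraries, horizontal lines are group means of 3, and the dotted line separates the Type 1 experiment (left) from the IL-4 experiment (right). Ctsl lies between 559 and 791 with IFN-γ + E. coli and between 2045 and 2605 with its ACs, while Gm2a lies between 367 and 681 with IFN-γ + E. coli and between 97.6 and 121 with its ACs.

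Among the glycosidases, Gla rose and Gusb and Man2b1 fell with IFN-γ. Gla, the α-galactosidase A that removes terminal galactose from glycolipids (chrX:134588149-134601125), was at 651, 486 and 512 with ACs, 524, 443 and 552 with E. coli and 1184, 1537 and 1527 with IFN-γ. With IFN-γ + E. coli it was at 633, 678 and 665. Gla rose 2.58-fold with IFN-γ (log2FC 1.36, SE 0.14, adjusted p = 4.3e-07), and only that group lay clear of the ACs libraries. Glb1, the β-galactosidase, also rose with IFN-γ (0.66, adjusted p = 0.0037).

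Gusb, the β-glucuronidase of glycosaminoglycan breakdown (chr5:129989011-130003049), was the 1 member called in all 3 comparisons of the Type 1 experiment. It was at 529, 495 and 453 with ACs, 216, 258 and 223 with E. coli, 289, 363 and 232 with IFN-γ and 95.5, 120 and 106 with both. Each stimulated group lay below the ACs libraries, and the group with both stimuli lay below the other two. Gusb fell with E. coli (log2FC -1.08, adjusted p = 1.4e-04), with IFN-γ (-0.76, adjusted p = 0.0018) and with both (-2.19, adjusted p = 4.8e-09). In the IL-4 experiment its values were 309, 333 and 327 with ACs and 202, 208 and 298 with IL-4 (-0.47, adjusted p = 0.44).

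Man2b1, the α-mannosidase of glycoprotein breakdown, was the highest glycosidase. It was at 5224, 4667 and 5034 with ACs, 2647, 2333 and 2241 with IFN-γ and 3490, 2785 and 2344 with both. It fell with IFN-γ (log2FC -1.05, SE 0.13, adjusted p = 3.8e-06) and with both (-0.81, adjusted p = 5.0e-05), and with E. coli it was at 3248, 3449 and 3731 (-0.52, adjusted p = 0.0094, short of 1.5-fold). All 9 stimulated libraries lay below the ACs libraries.

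The other glycosidases that fell did so with IFN-γ + E. coli. Neu1, the sialidase that works in a complex with Ctsa, went from 211, 212 and 213 to 88.4, 85.5 and 70.4 (log2FC -1.38, adjusted p = 1.9e-06). Hexa, the α-subunit of hexosaminidase, went from 342, 320 and 325 to 117, 192 and 120 (-1.23, adjusted p = 1.1e-05). Gaa, the acid α-glucosidase of glycogen breakdown, went from 195, 169 and 140 to 131, 128 and 59.3 (-0.73, adjusted p = 0.024), and lost its call in 3 of 14 alternatives to the fit. Idua and Naglu were not called.

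Of the lipid group, Lipa and Gm2a carried the largest rises. Lipa, the acid lipase that frees cholesterol and fatty acids from lipoproteins and engulfed membranes (chr19:34492318-34527474), was at 393, 317 and 345 with ACs and at 782, 952 and 1213 with IFN-γ. It was at 485, 388 and 490 with E. coli and at 626, 559 and 535 with both. The IFN-γ libraries were highest, those with both lay between them and the ACs libraries, and neither overlapped the ACs libraries. Lipa rose 2.75-fold with IFN-γ (log2FC 1.46, SE 0.15, adjusted p = 6.5e-07) and 1.63-fold with both (0.71, adjusted p = 0.0012). In the IL-4 experiment its values were 517, 747 and 584 with ACs and 312, 291 and 442 with IL-4, without overlap but not called (-0.83, adjusted p = 0.13).

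Gm2a encodes the GM2 activator, a cofactor that presents ganglioside GM2 to hexosaminidase (chr11:55098115-55113029). It was at 97.6, 121 and 115 with ACs, 102, 122 and 128 with E. coli, 202, 170 and 179 with IFN-γ and 681, 381 and 367 with both. E. coli alone overlapped the ACs libraries and the other groups did not. Gm2a rose 1.65-fold with IFN-γ (adjusted p = 0.013) and 4.10-fold with both (log2FC 2.03, SE 0.20, adjusted p = 2.1e-07). The call with IFN-γ was lost in 3 of 14 alternatives to the fit. Hexa, the enzyme subunit that Gm2a serves, had fallen with IFN-γ + E. coli.

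Psap, the precursor of the saposin cofactors of sphingolipid breakdown, rose with IFN-γ from 3184, 2844 and 2726 to 4617, 5612 and 4742 (log2FC 0.77, adjusted p = 4.2e-05). Npc2, the soluble cholesterol carrier of the lysosomal lumen, rose with IFN-γ (0.59, 1.51-fold, adjusted p = 2.7e-04), and Npc1, its partner in the membrane, was not called (0.36, adjusted p = 0.11). Npc2 lost its call in 5 of 14 alternatives to the fit. Smpd1, the acid sphingomyelinase, fell with IFN-γ + E. coli from 97.6, 112 and 93.8 to 28.5, 56.2 and 35.9 (-1.36, adjusted p = 4.5e-04). Pld3, an exonuclease of lysosomal nucleic acids, fell in the same comparison (-0.84, adjusted p = 0.0036), and the ceramidase Asah1, the thioesterase Ppt1, Dnase2a and Grn were called in none.

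Lamp2, a membrane glycoprotein needed for fusion with autophagosomes, was the called membrane protein. It was at 899, 969 and 868 with ACs, 1492, 1361 and 1767 with IFN-γ and 1728, 1116 and 1471 with both. It rose with IFN-γ (log2FC 0.75, adjusted p = 8.9e-04) and with both (0.64, adjusted p = 0.0024), and without replicate 1 of the group with both the latter was 0.49 and short of 1.5-fold. After upper quartile rescaling both were short of 1.5-fold (0.48 with IFN-γ and 0.33 with both). Cd63 was at 3466, 3295 and 3177 with ACs and at 4854, 4654 and 5225 with E. coli, without overlap and just short of the fold threshold (1.48-fold, adjusted p = 0.0016). Lamp1 (1.44-fold, adjusted p = 0.0013) and the enzyme receptor Scarb2 (1.37-fold, adjusted p = 0.0081) were in the same position with IFN-γ. The calcium channel Mcoln1 had a log2FC of -0.04 with E. coli, 0.33 with IFN-γ, -0.07 with both and -0.28 with IL-4, none called.

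Tfeb, the transcription factor that reads the TCACGTGA element, was at 48.8, 47.9 and 51.4 with ACs and was not called in any comparison. Its log2FC was 0.12 with E. coli, -0.16 with IFN-γ, -0.38 with both and 0.13 with IL-4. With both stimuli it was at 55.6, 74.5 and 12.4, and without replicate 3 of that group the value was 0.38 (adjusted p = 0.27).

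Of the 6 proton pump genes, the 3 that encode subunits of the V1 sector rose with IFN-γ. Atp6v1a, the catalytic subunit, went from 2000, 1682 and 1610 with ACs to 2697, 3521 and 3214 (log2FC 0.83, adjusted p = 4.2e-04). Atp6v1b2, the partner of the catalytic subunit, went from 1113, 1073 and 904 to 1381, 1805 and 1705 (0.66, adjusted p = 3.3e-04). Atp6v1h, a regulatory subunit, went from 304, 282 and 285 to 375, 425 and 556 (0.62, adjusted p = 0.0037). None of the 3 overlapped the ACs libraries with IFN-γ, and none was called with E. coli, with both or with IL-4. After upper quartile rescaling the 3 were at 0.57, 0.39 and 0.35 and no longer called. The accessory protein Atp6ap1 was not called in any comparison (0.14 with IFN-γ).

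The d subunit of the V0 sector is made from a pair of genes. Atp6v0d1, the broadly expressed form, was at 433, 430 and 404 with ACs and 662, 707 and 529 with IFN-γ (1.49-fold, adjusted p = 0.0054), just short of the fold threshold. Its log2FC was 0.36 with E. coli, 0.42 with both and -0.23 with IL-4. Atp6v0d2, the form known from osteoclasts and macrophages (chr4:19876841-19922605), was at 4.07, 10.3 and 8.97 with ACs, 0.00, 1.64 and 0.00 with E. coli, 35.6, 41.3 and 22.6 with IFN-γ and 1.43, 0.00 and 0.00 with both.

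The IFN-γ libraries lay above and both groups with E. coli below all ACs libraries. Atp6v0d2 was called lower with E. coli (adjusted p = 0.032) and with both (adjusted p = 0.011), on 2 reads and 1 read over 3 libraries against 27 with ACs. These are ratios of 0.0734 (exact 95% interval 0.00846 to 0.292) and 0.0581 (0.00142 to 0.352), counting error only. Both calls ended without replicate 2 of the ACs libraries (adjusted p = 0.14 and 0.060) or replicate 3 (0.13 and 0.053), and the call with E. coli also ended without E. coli replicate 1 (0.096) or 3 (0.091). With IFN-γ it did not pass (log2FC 2.00, SE 0.77, adjusted p = 0.063). It was called higher by limma with a pseudocount of 5 (adjusted p = 0.0033) or with all 18 libraries in one fit (0.011), by edgeR (0.0041) and by DESeq2 (0.003). Since Atp6v0d2 entered the test of the Type 1 experiment through the IFN-γ libraries, its values there are a description. In the IL-4 experiment its values were 40.6, 45.1 and 85.8 with ACs and 114, 86.4 and 77.1 with IL-4, groups that overlapped (0.74, adjusted p = 0.50). Without both shallow libraries the log2FC was 1.19 (adjusted p = 0.0057).

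**Figure D4:**
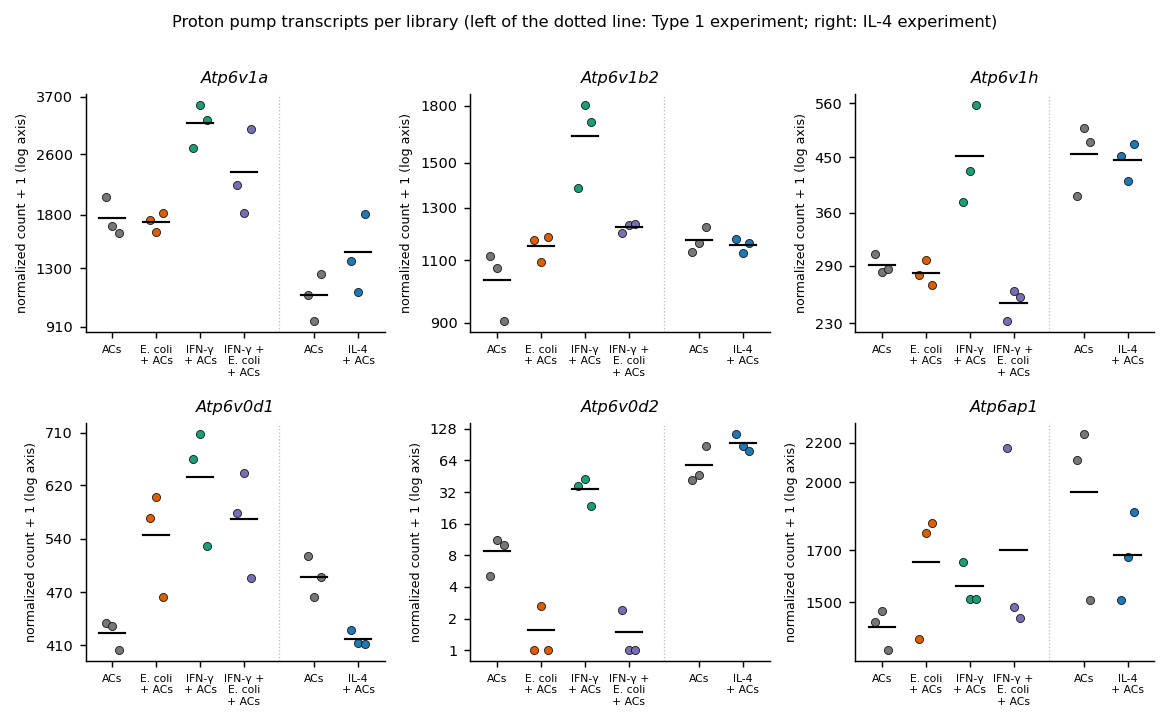
Normalized counts plus 1 (log axes that differ between panels) of the 6 proton pump transcripts in each library. Points are libraries, horizontal lines are group means of 3, and the dotted line separates the Type 1 experiment (left) from the IL-4 experiment (right). Atp6v1a, Atp6v1b2 and Atp6v1h have their highest group mean with IFN-γ within the Type 1 experiment. Before 1 is added, Atp6v0d2 lies between 22.6 and 41.3 with IFN-γ and at no more than 1.64 in both groups with E. coli.

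Set directly against each other, the single stimuli differed in 18 members, all higher with IFN-γ than with E. coli (background 9.84% of 10166 genes). Without Atp6v0d2, which entered the test through the IFN-γ libraries, 17 were higher. None was called lower by limma (background 6.72%), by edgeR or by DESeq2. At an unadjusted p under 0.05 in limma, 2 members were lower, Cd63 and Man2b1 (14.2% of all genes). The median log2FC was 0.52 against -0.01 for all genes, and 28 members were higher without overlap (background 19.4%) and 2 lower (background 17.4%). Besides Atp6v0d2 (4.58, which depends on the pseudocount of 1), the largest differences among the called members were those of Lgmn (3.03-fold, adjusted p = 3.1e-06), Ctsb (2.96-fold, adjusted p = 5.3e-08), Ctss (2.92-fold, adjusted p = 4.7e-07), Gla (2.79-fold, adjusted p = 2.2e-07) and Ctsl (2.64-fold, adjusted p = 1.6e-06). Of the 12 macrophage markers, 9 were called higher with IFN-γ than with E. coli and none lower, and their part in the result was not tested. Upper quartile rescaling moved the median of all genes to -0.21, the calls of all genes from 1000 higher and 683 lower to 679 and 1241, and those of the members to 10 higher and 1 lower (Man2b1). Without IFN-γ replicate 1, 1 member was also called lower.

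The interaction term asked whether the response to IFN-γ and E. coli together differed from the sum of the single responses. It was negative for 38 of the 43 members, with a median of -0.49 against -0.03 for all genes, and 9 members were called below the sum (background 4.28%) and 2 above it (background 3.16%). Lipa had an interaction of -1.12 (SE 0.22, adjusted p = 0.0034), beside a rise of 2.75-fold with IFN-γ and 1.63-fold with both. Gla (-0.98, adjusted p = 0.0043), Ctsz (-0.94, adjusted p = 0.0029) and Npc2 (-0.73, adjusted p = 0.0049) had risen with IFN-γ and were not called with both. Gm2a was above the sum (1.24, SE 0.29, adjusted p = 0.012), and so was Man2b1 (0.76, adjusted p = 0.014), which had fallen with IFN-γ and with both. Of the 12 macrophage markers 5 were called below the sum and none above it, and their part in the result was not tested. The count below the sum was 4 without replicate 3 of the ACs libraries or replicate 1 of the E. coli libraries, and 5 without replicate 2 of the ACs or of the IFN-γ libraries. Without E. coli replicate 1, Man2b1 also lost its call (adjusted p = 0.051).

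**Figure D5:**
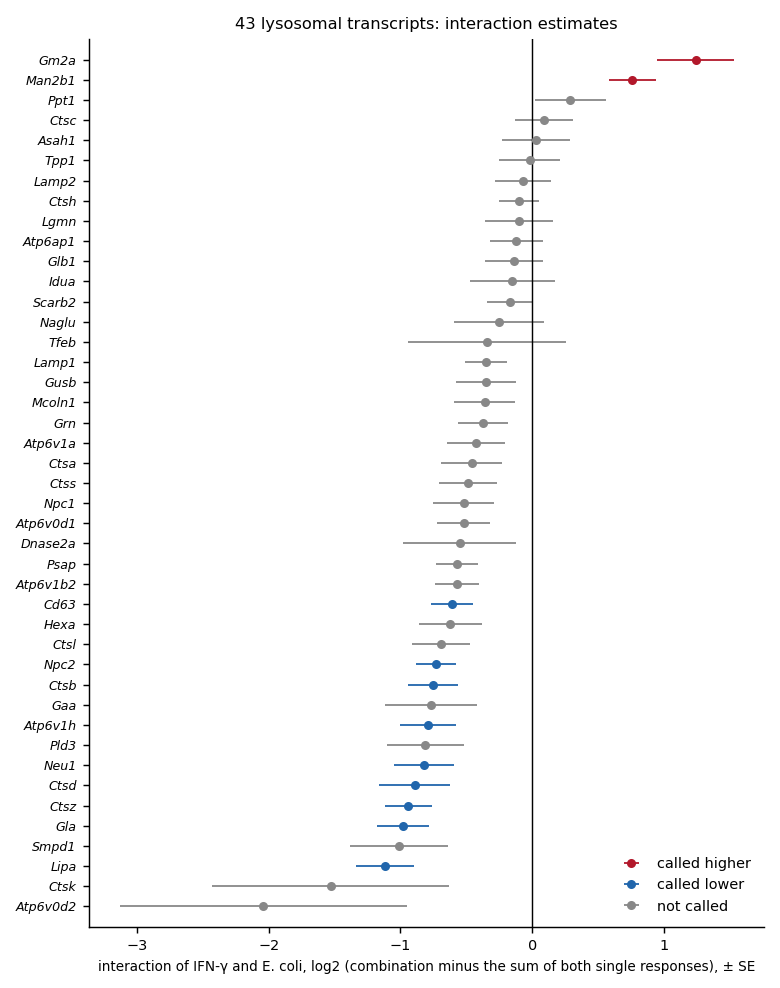
Interaction of IFN-γ and E. coli for each of the 43 lysosomal transcripts (rows, ordered by value), as the log2 fold change with both stimuli minus the sum of the log2 fold changes with each alone. Points are estimates from limma, horizontal lines are ± 1 SE, and the vertical line marks 0, where the response to both equals the sum. Of the 43 points 38 lie to the left of 0, with 9 called there (blue), and 2 on the right are called (red), Gm2a at 1.24 and Man2b1 at 0.76.

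Across the Type 1 comparisons, 16 members were called in none, 18 in 1, 8 in 2 and 1 in all 3 (37.2%, 41.9%, 18.6% and 2.33% of the members). Of all 10166 genes tested, the shares were 60.0%, 21.6%, 13.4% and 5.03%. Of the 14 members that rose with IFN-γ, 3 were also called higher with both stimuli (Gm2a, Lamp2 and Lipa) and 11 were not called with both. Of the 12 that fell with both, Gusb and Man2b1 also fell with IFN-γ, and 10 were not called with IFN-γ. The matching joint counts over all genes were not made, so whether these patterns are particular to the members is not known. These comparisons share ACs libraries, so the counts are a description.

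With IL-4, the lower values of Ctsd and Lipa were those nearest to a call. Ctsd, the aspartyl protease of lysosomes, was at 2927, 3424 and 3035 with ACs and at 1867, 1866 and 2334 with IL-4, without overlap (log2FC -0.63, SE 0.13, adjusted p = 0.069). In edgeR its log2FC was -0.63 (adjusted p = 0.031), and that of Lipa -0.88 (adjusted p = 0.022). Without both shallow libraries, the 7 that fell were Lipa (-1.04, adjusted p = 0.0019), Ppt1 (-0.78), Ctsd (-0.76), Ctsc (-0.72), Pld3 (-0.70), Gusb (-0.65) and Ctsa (-0.59).

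To set the Type 2 stimulus against the Type 1 stimulus, the response to IL-4 was compared with that to IFN-γ + E. coli, each against its own ACs libraries. The difference was called higher for 7 members (background 9.67% of 10414 genes) and lower for 8 (background 10.8%), shares of 16.3% and 18.6% of the members. On the higher side stood Ctsl (1.84, SE 0.24, adjusted p = 1.1e-05) and Gusb (1.72, adjusted p = 2.5e-05), which had fallen with IFN-γ + E. coli. On the lower side stood Gm2a (-2.52, SE 0.31, adjusted p = 4.7e-06) and Lipa (-1.53, adjusted p = 1.4e-04), which had risen with it. Of the macrophage markers 8 of 12 were higher and 2 lower in this difference, and their part in the result was not tested. Upper quartile rescaling moved the median of all genes from 0.04 to 0.51 and the calls of the members to 6 higher and 1 lower, Gm2a, with Lipa at -1.07 (adjusted p = 0.065).

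The ACs libraries of both experiments held some members at different levels. Gm2a had a mean of 111 ± 12.2 (SD, n = 3) in the Type 1 experiment, against 1294 ± 388 in that with IL-4, and Atp6v0d2 means of 7.79 ± 3.29 and 57.2 ± 24.9. Glb1 (115 and 299) and Naglu (66.8 and 167) were also higher in the IL-4 experiment. Experiment and any other difference between these libraries cannot be told apart, and no test was made.

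Other genes of the pathway were read from lists of their own. Of 11 further pump subunits tested, 3 rose with IFN-γ (27.3%, background 11.4%) and none fell (Atp6v1d 0.69 and Atp6v1c1 0.65 on the log2 scale, with Atp6v1e1, named after its value was seen, the third), and none was called with E. coli, with both or with IL-4. Of 24 other lysosomal hydrolases, 1 rose and 4 fell with E. coli, 2 rose and 4 fell with IFN-γ, and 2 rose and 8 fell with both. These are 4.17% and 16.7%, 8.33% and 16.7%, and 8.33% and 33.3% of the list, against the backgrounds of all genes given above (5.05% and 5.25%, 11.4% and 9.96%, 14.7% and 17.2%), and the shares that rose lay below them. The carboxypeptidase Scpep1 (1.35) rose with IFN-γ, and the β-mannosidase Manba (-1.35) and the acid phosphatase Acp5 (-1.29) fell. With both, Manba also fell (-2.29).

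Of 23 other membrane proteins and transporters, 3 rose and 3 fell with E. coli, 4 rose and 2 fell with IFN-γ, and 6 rose and 4 fell with both. With IFN-γ and with both, these are 17.4% and 8.70%, and 26.1% and 17.4% of the list, and the shares that fell with IFN-γ and with both lay near the background. The metal transporter of phagosomes Slc11a1 rose with E. coli (1.16), with IFN-γ (1.49) and with both (1.72), and the chloride-proton exchanger Clcn7 rose with IFN-γ (1.38). Abca2, a lipid transporter, fell with IFN-γ (-2.49) and with both (-2.84). Of 14 regulators tested, 1, 2 and 3 fell with E. coli, IFN-γ and both (7.14%, 14.3% and 21.4%, against 5.25%, 9.96% and 17.2% of all genes), and none rose. The TFEB relative Tfec fell with E. coli (-1.46) and with both (-1.87), and Lamtor2, part of the complex that anchors mTORC1 to lysosomes, fell with IFN-γ (-0.97) and with both (-1.54).

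Of 14 genes that deliver enzymes to lysosomes, 2 fell with E. coli, 1 rose and 3 fell with IFN-γ, and 4 fell with both (14.3% lower, 7.14% higher and 21.4% lower, and 28.6% lower). The shares of all genes were 5.25% lower with E. coli, 11.4% higher and 9.96% lower with IFN-γ, and 17.2% lower with both. The sorting adaptor Gga2 fell with E. coli (-1.33), with IFN-γ (-1.68) and with both (-2.38). Of the 4 cathepsin inhibitors tested, the stefins Cstb (1.54) and Stfa3 (1.30) rose with IFN-γ, Stfa3 (2.56) also rose with E. coli, and Cst7, a cystatin of leukocytes, rose with IL-4 (1.48, adjusted p = 0.0018) and fell with E. coli (-0.87) and with both (-1.23). In the IL-4 comparison no gene of the other 5 lists was called.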

How the data were processed

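The authors deposited a table of 54446 genes by 18 libraries in which the signal is the number of reads counted on a gene divided by a DESeq2 size factor of the library. All columns were used. Libraries were made by CEL-Seq2 from total RNA. The submitters' processing notes name FastQC 0.11.5, Trim Galore, cutadapt 1.10, TopHat2 2.1.0, Bowtie2 2.2.6, HTSeq 0.6.1 and DESeq2 1.26.0 and the build GRCm38. The paper describes 2 pipelines, and which one made this table is not given in the sources used here. Each library's values were whole multiples of 1 step (tolerance 0.0051), which gave whole reads for 100.0% of the values.

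Symbols were matched for 54409 identifiers, version ignored. Groups and replicates come from the labels, 3 libraries each. The paper calls them biological replicates and, for eosinophils with ACs against those without, speaks of a different mouse per lane. Whether this holds for the stimulated libraries is not given, so p-values measure the spread between these libraries. Replicates differed by more than sampling noise, with 3.92 to 13.15 for chi-square over degrees of freedom. Depth was 779421 to 7782072 reads, and 3 reads, the limit that a count of 0 allows, stood for normalized counts of 15.42 and 16.08 in the shallow libraries of the IL-4 experiment. Intervals cover counting error only.

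limma 3.58.1 (R 4.3.3, lmFit, eBayes with trend) was fitted to log2(normalized count + 1) over genes with a mean of at least 10. On this scale the change of low genes depends on the added 1 and can be understated or overstated. The Type 1 comparisons used 12 libraries, IL-4 used 6, and the difference of responses used 18. Calls needed a Benjamini-Hochberg adjusted p under 0.05 over all genes and 1.5-fold. edgeR 4.0.16 and DESeq2 1.42.0 were run on the recovered reads, and scripts were tested on simulated data. Alternatives were a pseudocount of 5, no filter, a minimum mean of 50, a block for the replicate number, upper quartile rescaling, a joint fit of all 18 libraries, calls by adjusted p alone, each library left out, and, added after the data were seen, both shallow libraries left out. The upper quartile was taken within each library over its genes with a read, which ranged from 13115 to 20537 genes over the libraries. Summaries and figures used Python 3.11.15, pandas 2.3.3, scipy 1.17.1 and matplotlib 3.10.9.

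The members and lists were chosen with earlier results of these data known. The naming rule gives full values for called members, up to the 8 largest rises and 8 largest falls in each comparison with ACs, the 5 highest and 5 lowest levels, up to 2 called genes a direction from each other list, and Tfeb, Mcoln1, Atp6v0d1 and Atp6v0d2 always. Members named beyond it, and those named in the other comparisons, were chosen after their values were seen. Some genes of the other lists are counted but not reported by name here.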

Additional observations from a re-analysis of the deposited data

Results flagged for a closer look

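Members whose response differed between stimuli by a direct test (limma, adjusted p under 0.05 and 1.5-fold) are listed here as values. In the interaction of IFN-γ and E. coli, the response to both stimuli was above the sum of the single responses for Gm2a (1.24 on the log2 scale) and Man2b1 (0.76). It was below the sum for Lipa (-1.12), Gla (-0.98), Ctsz (-0.94), Ctsd (-0.89), Neu1 (-0.82), Atp6v1h (-0.79), Ctsb (-0.75), Npc2 (-0.73) and Cd63 (-0.61). Of 20 alternatives, the call was lost in 13 for Ctsd, 11 for Cd63, 10 for Neu1, 6 for Ctsb, 5 for Atp6v1h and 1 for Man2b1.

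Between the response to IL-4 and the response to IFN-γ + E. coli, each against its own ACs libraries, the difference was higher for Atp6v0d2 (3.37), Ctsk (3.25), Ctsl (1.84), Gusb (1.72), Neu1 (1.36), Tpp1 (0.80) and Hexa (0.74). With a pseudocount of 5 in place of 1, those of Atp6v0d2 and Ctsk, which rest on few reads, were 1.90 and 2.22. It was lower for Gm2a (-2.52), Lipa (-1.53), Ppt1 (-1.10), Glb1 (-1.06), Ctsc (-0.96), Ctsh (-0.72), Lamp2 (-0.71) and Atp6v0d1 (-0.65). Upper quartile rescaling left Gm2a as the 1 member called lower, with Lipa then at -1.07, Ppt1 at -0.63, Glb1 at -0.59, Ctsc at -0.49, Ctsh at -0.25, Lamp2 at -0.24 and Atp6v0d1 at -0.18. Of the 20 alternatives, Lamp2 lost its call in 10, Ppt1 and Hexa in 6 each and Tpp1 in 3. Experiment and stimulus differ together in this difference and cannot be told apart.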

How the results depend on the processing

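Counts of called members that moved by more than 1.5 times are given by setting, and the cause was not tested. Without the fold threshold, E. coli gave 1 higher and 9 lower and IFN-γ against E. coli 1 lower, as built into that setting. With upper quartile rescaling, 4 rose with IFN-γ, 1 with IFN-γ + E. coli, 10 were higher and 1 lower for IFN-γ against E. coli, and 1 was lower for IL-4 against IFN-γ + E. coli. For IL-4, 2 fell with no filter on low values, 1 with a mean of at least 50, 2 by edgeR, 2 by DESeq2, 2 with all 18 libraries in one fit, and 7 fell and 1 rose without both shallow libraries. Of all genes in those fits, 0.318%, 0.546%, 0.797%, 0.759% and 1.01% fell, and without both shallow libraries 2.93% fell and 3.25% rose. The interaction had 5 members below the sum with no filter.

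With 1 library left out at a time, higher and lower counts ranged from 0 to 1 and 3 to 7 for E. coli, 12 to 15 and 2 to 2 for IFN-γ, 2 to 5 and 10 to 12 for IFN-γ + E. coli, 0 to 0 and 0 to 1 for IL-4, 15 to 18 and 0 to 1 for IFN-γ against E. coli, 1 to 2 and 4 to 13 for the interaction, and 6 to 8 and 7 to 10 for IL-4 against IFN-γ + E. coli. The libraries behind shifts of over 1.5 times are named beside each comparison above. Atp6v0d2 fell under the filter when an IFN-γ library was left out, so 42 members were tested there.

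Signs turned for members that were not called. With a library left out, Mcoln1 ranged from -0.14 to 0.05 for E. coli (above 0 without ACs replicate 1 or E. coli replicate 2) and from -0.17 to 0.02 for IFN-γ + E. coli (above 0 without ACs replicate 1). Tfeb ranged from -0.87 to 0.38 for IFN-γ + E. coli (above 0 without replicate 3 of that group) and from -0.18 to 0.33 for IL-4 (below 0 without IL-4 replicate 3), and for IL-4 it was -0.01 by edgeR and -0.24 without both shallow libraries. Of 588 values of named members with a library left out, 524 kept direction and side of the threshold, 56 lost the call, 3 gained it and 5 turned. Of 586 under the other alternatives, these were 551, 28, 5 and 2.

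Residuals of libraries with the same replicate number correlated by -0.09 to 0.09 over 18 pairs in the Type 1 experiment. In the IL-4 experiment they correlated by 0 to 0.02 over 3 pairs. Pairs with different numbers correlated by -0.08 to 0.07 and by -0.05 to 0.06. Whether libraries with the same number share a mouse or a preparation is not given, and these correlations do not settle it. Both libraries numbered 3 in the IL-4 experiment share a low depth (849705 and 779421 reads). With the replicate block, each count was as in the fit without it (for E. coli 0 higher and 5 lower, for IFN-γ 14 and 2, for IFN-γ + E. coli 4 and 12, for IL-4 0 and 0, for IFN-γ against E. coli 18 and 0, for the interaction 2 and 9, and for IL-4 against IFN-γ + E. coli 7 and 8). Depth limits members with few reads, such as Atp6v0d2 and Ctsk, and the IL-4 comparison through its shallow libraries.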
